A study of Mus musculus with 2 samples.

Results

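Endothelial nuclei of the mouse brainstem were taken as those that carried 2 labels at once in the deposited metadata, the cluster name endo and the reference-based label Endothelial cells. The rule kept 209 of 18281 nuclei. The study compared the brainstem transcriptome of a mouse model of Dravet syndrome, a severe childhood epilepsy, with that of wild-type (WT) mice by single-nuclei RNA sequencing with 10x Genomics 3′ chemistry. HET mice carried 1 *Scn1a* A1783V knock-in allele next to 1 intact allele and came from crosses of a male with a floxed *Scn1a* allele and a Sox2-Cre female, a Cre line active throughout the embryo. WT mice were littermates on the same C57Bl6 background (C57BL/6J in the methods), without the knock-in. Both samples came from untreated females at postnatal day 41, the mice were perfused with saline, and the brainstem was frozen before nuclei were released. There was 1 library per genotype, so no difference between genotypes could be tested and the genotype cannot be told apart from the animal, the dissection or the library. Intervals below are exact 95% intervals of the unique molecular identifier (UMI) counts or nuclei, and cover counting error only.

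Endothelial cells line the blood vessels. In the brain they form the blood–brain barrier: tight junctions seal the cells to each other, vesicle transport is held low, and carriers in the membrane take up glucose, amino acids and hormones while efflux pumps return foreign compounds to the blood. Wnt and β-catenin signals from neighbouring cells maintain this state, VEGF and Notch signals shape the vessels, and pericytes wrap the capillaries from outside and share their basement membrane.

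The endothelial nuclei comprised 161 of 9259 WT nuclei and 48 of 9022 HET nuclei. They held 509021 UMIs in WT and 137956 UMIs in HET, with a median per nucleus of 2341 and 2058. Whole libraries held 70301390 and 66176778 UMIs. Between the libraries 23 cell barcodes were shared, of which 0 belonged to endothelial nuclei. All nuclei with the reference label Endothelial cells lay in the endo cluster. That cluster held 344 nuclei, and its other 135 carried the labels Neurons (87), Astrocytes (26), Oligodendrocytes (21) or Microglia (1). A second form of the reference label named 158 WT and 41 HET nuclei of the set Endothelial cells, and it named 7 HET nuclei Neurons, 2 WT nuclei qNSCs and 1 WT nucleus NPCs. Within the set the libraries differed in quality measures. The median ribosomal protein share of UMIs was 3.18% in WT and 1.04% in HET, the mitochondrial share 2.21% and 1.63%, and the deposited doublet score 0.278 and 0.187 (0.169 and 0.116 in the whole libraries). Hemoglobin made up over 1% of UMIs in 23 WT and 4 HET nuclei and reached 45.6% and 45.0%.

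The label was checked against the 3 markers of the rule and a list of 22 genes known from endothelium in general. Levels are given as counts per 1000000 UMIs (CPM) over the summed nuclei. *Flt1*, a VEGF receptor, was 540-fold higher in endothelial nuclei than in all other nuclei, *Cldn5*, the main tight junction claudin of the barrier, 489-fold and *Pecam1*, a cell contact molecule, 126-fold. All 22 list genes were at least 10-fold higher and 20 were at least 100-fold higher. Because clusters were drawn on these genes, the folds are a description of the class.

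Promoters of the 2 markers with the highest folds are shown because their sequences differ in a motif that many endothelial promoters hold. Both run from 250 bases before to 50 bases after the annotated start (RefSeq, GRCm38.p6), 5′ to 3′ on the strand of the gene, and capitals mark AGGAAG or its reverse complement CTTCCT, the core letters bound by ETS factors such as *Erg* and *Fli1*. *Flt1* lies on the minus strand at chr5:147725962-147726261 and *Cldn5* on the plus strand at chr16:18776597-18776896.
Flt1: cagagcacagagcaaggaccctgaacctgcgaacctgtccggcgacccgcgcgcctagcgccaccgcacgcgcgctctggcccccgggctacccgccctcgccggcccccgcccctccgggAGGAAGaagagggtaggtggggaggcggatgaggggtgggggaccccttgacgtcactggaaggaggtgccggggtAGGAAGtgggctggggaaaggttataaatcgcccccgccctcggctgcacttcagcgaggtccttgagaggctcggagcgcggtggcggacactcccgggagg
Cldn5: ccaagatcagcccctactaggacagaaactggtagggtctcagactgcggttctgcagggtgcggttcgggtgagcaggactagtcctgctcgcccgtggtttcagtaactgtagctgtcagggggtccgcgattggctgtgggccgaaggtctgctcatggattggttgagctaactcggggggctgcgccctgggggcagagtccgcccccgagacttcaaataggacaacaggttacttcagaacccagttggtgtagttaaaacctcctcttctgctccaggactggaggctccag
The *Flt1* window held 2 matches and the *Cldn5* window 0. RefSeq windows were found for 16 of the 22 endothelial genes, and 15 of their 23 windows (65.2%) held the motif, against 35.4% of all 32851 promoter windows and 1 of 7 windows of pericyte genes. With 1 more letter, CAGGAAG, the shares were 39.1% and 13.3%. The letters were chosen after 6 related forms had been counted, and the form CCGGAAG was in 0 of the 23 windows against 8.86% of all. A match is no evidence of binding.

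Markers of a second vascular cell type were present in the set. *Rgs5* and *Vtn*, markers of pericytes, were 397-fold and 177-fold higher in endothelial nuclei than in the rest, and pericyte markers made up 17.6% of the endothelial and pericyte marker UMIs. In 11 nuclei, all of them WT, pericyte marker UMIs outnumbered endothelial ones. Another 90 nuclei had no pericyte UMI. Summed over 10 pericyte markers, WT nuclei held 5913 CPM and HET nuclei 2472 CPM, a log2 ratio (HET over WT) of -1.26 (-1.42 to -1.10). Of the 10, 9 were lower in HET and 6 by at least 2-fold, where 54% and 13% of all genes with at least 20 UMIs were. *Atp13a5*, a pericyte transporter, had 114 WT and 46 HET UMIs and a log2 ratio of 0.57. Whether these UMIs came from pericytes, doublets or free RNA was not tested.

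A low-pericyte set was formed, after the data were seen, from the 124 nuclei (86 WT, 38 HET) in which pericyte markers made up under 5% of these marker UMIs. Of the 209 nuclei, 29 lay between 3% and 7%. The other 85 nuclei are called pericyte-rich here, for their marker share alone. Of the 85, 11 had more pericyte than endothelial marker UMIs, and the medians were 74 endothelial and 21 pericyte UMIs. *Cldn5* stood at 3341 CPM in the 85 and at 1832 CPM in the low-pericyte nuclei, and *Flt1* at 3292 and 3705 CPM. Leaving the 85 out thus also removes endothelial transcripts. In the 85 the median share of ribosomal protein UMIs was 4.56% in WT and 3.69% in HET, against 1.76% and 0.936% in the low-pericyte nuclei. The mitochondrial share was 3.24% and 3.23%, against 1.14% and 1.28%. Pericyte transcripts in these 85 nuclei were not in the ratio seen in the 135 endo-cluster nuclei with another label. *Vtn* stood at 4330 CPM in the 85 and at 1432 CPM in the 135, while *Pdgfrb*, the pericyte growth factor receptor, stood at 318 and 752 CPM. Many ratios are therefore given with and without the pericyte-rich nuclei below. A ratio given once is for all 209 nuclei and can differ in the low-pericyte set.

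**Figure D1:**
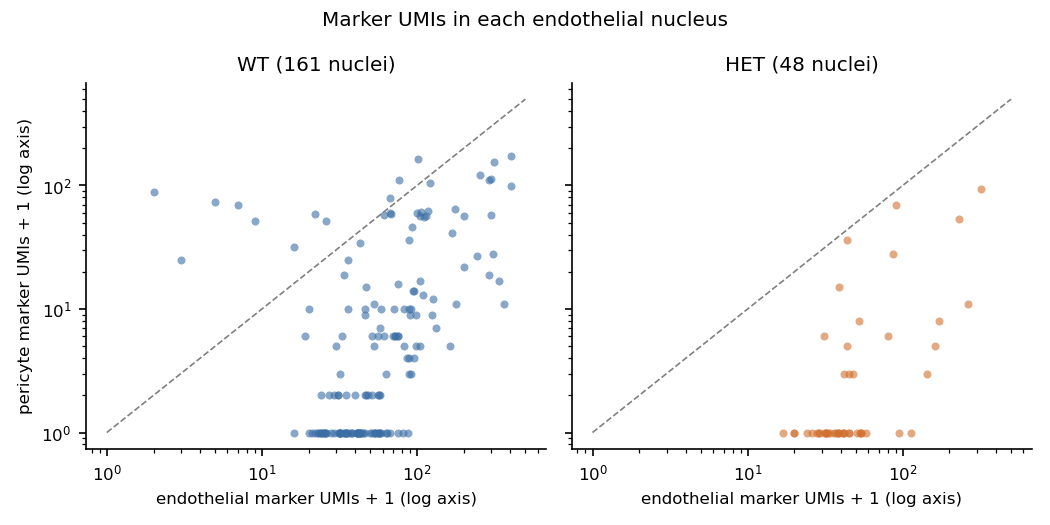
UMIs of 22 endothelial markers (x axis, plus 1, log scale) against UMIs of 10 pericyte markers (y axis, plus 1, log scale) in each of the 161 WT (left) and 48 HET (right) nuclei; the dashed line marks equal counts. The 11 nuclei with more pericyte than endothelial UMIs are WT, and 31 of the 48 HET nuclei sit on the lowest line with no pericyte UMI.

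Transcripts known from other cell types were also counted in these nuclei. To compare cell types at equal depth, shares of nuclei with at least 1 UMI were computed for nuclei thinned to 1000 UMIs each. *Snap25*, a synaptic gene, was in 14.0% of endothelial nuclei against 43.4% of neurons and 11.9% of astrocytes. Summed marker levels of other types in WT and HET were 375 and 536 CPM for astrocytes, 244 and 261 for microglia, 147 and 167 for smooth muscle, 68.8 and 72.5 for fibroblasts, and 829 and 101 for choroid plexus and ependyma. The share for *Snap25* in endothelial nuclei was thus near that in astrocytes, and is not read as expression. Whether such UMIs came from free RNA, doublets or mislabelled nuclei was not tested.

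Barrier genes were concentrated in the endothelial nuclei. *Cldn5* was found in 70.0% of them (63.3 to 76.2), and in 1.06% of astrocytes, 1.20% of oligodendrocytes and 0.56% of neurons. The vascular cadherin *Cdh5* was in 24.8% and the tight junction protein *Ocln* in 22.1%, with astrocytes at 0.06% and 0.42%. *Esam*, an endothelial adhesion molecule, was 231-fold above the other nuclei. Scaffold genes used by many cells were not: *Tjp1* was 3.04-fold and *Magi1* 0.599-fold of the level in the rest. Of the 18 junction genes with at least 20 UMIs, 9 were over 10-fold.

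Of the transcytosis genes, those of caveolae were concentrated in these nuclei. *Cavin1* and *Cav1*, coats of caveolae, were 201-fold and 116-fold above other nuclei. *Mfsd2a*, a lipid carrier known for holding caveolae low in brain vessels, was in 11.1% of endothelial nuclei, with astrocytes at 4.62%. *Plvap*, the diaphragm protein of leaky vessels, was in 1.18% of endothelial nuclei against 1.71% of neurons, 0.37% of astrocytes and 0.39% of oligodendrocytes. It had 7 UMIs in all 209 nuclei, too few to tell its level from that of other nuclei (0.814-fold). Basement membrane genes were less restricted, and among their 12 compared genes 8 were over 10-fold with 75.0-fold for *Itga1*, a collagen-binding integrin, as the highest.

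Several transporters were found in over 50% of the endothelial nuclei. *Slco1a4*, an organic anion carrier, was in 83.5% of endothelial nuclei against 0.48% of astrocytes and was 466-fold higher than in the rest. *Slco1c1*, a carrier of thyroid hormone, was in 57.9%, with astrocytes at 14.6%. *Slc2a1*, the glucose carrier of the barrier, was in 54.7% of endothelial nuclei and 5.38% of astrocytes.
The amino acid carriers *Slc38a5* and *Slc7a5* were 452-fold and 41.7-fold higher. Efflux pumps were led by *Abcb1a* (P-glycoprotein), in 58.9% of endothelial nuclei, 0.48% of microglia and 0.14% of astrocytes. *Abcg2*, the second main pump, was in 54.7%, and microglia came next with 12.2%. The isoform *Abcb1b* had 4 UMIs. Among transport receptors *Tfrc*, the transferrin receptor, was in 28.0% of endothelial nuclei and also in 7.96% of neurons, while *Fcgrt*, the antibody receptor FcRn, was 161-fold higher. The fatty acid receptor *Cd36* had 0 UMIs, which allows up to 3 UMIs.

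**Figure D2:**
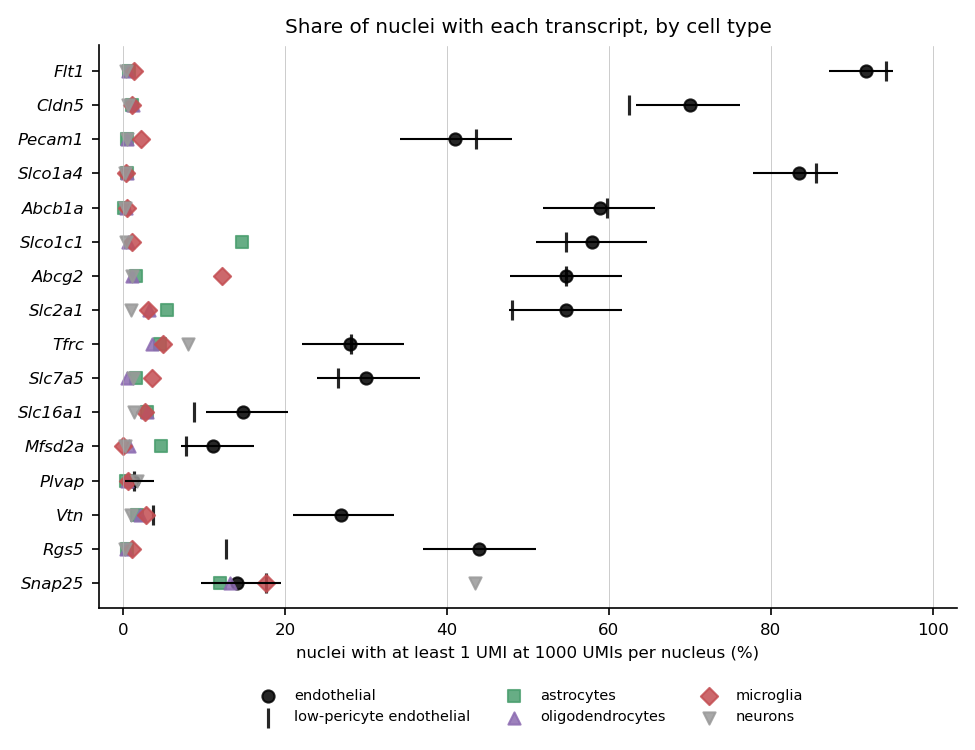
Expected percent of nuclei with at least 1 UMI at 1000 UMIs per nucleus (x axis) for 16 genes (y axis) in endothelial nuclei (black circles, bars are exact 95% intervals), low-pericyte endothelial nuclei (black ticks) and 4 other cell types agreed by both labels. *Cldn5* at 70.0% and *Abcb1a* at 58.9% of endothelial nuclei sit far to the right of the other types. *Mfsd2a* lies at 11.1%, with astrocytes at 4.62%. *Plvap* lies at 1.18% in endothelial nuclei, under the 1.71% of neurons, and *Vtn* moves from 26.9% to 3.68% in the low-pericyte nuclei.

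Signalling genes of each pathway were represented. Of the VEGF and angiopoietin list, *Robo4*, a guidance receptor of vessels, was 787-fold higher than in the rest, *Kdr*, the main VEGF receptor, 445-fold and *Tie1* 443-fold. Of the Wnt list, the transcription factors *Foxf2*, *Sox17* and *Foxq1* were 556-, 501- and 422-fold higher and *Lef1*, the β-catenin partner, 216-fold and detected in 46.7% of nuclei. BMP signalling was represented by its receptor *Acvrl1* (375-fold) and its target *Id1* (214-fold). The adhesion receptors *Adgrl4* and *Adgrf5* were 475-fold and 459-fold higher, and the flow-induced factor *Klf2* 398-fold. *Cxcl12*, a chemokine of vessels, was 486-fold higher and *Icam2*, a ligand for leukocyte integrins, 430-fold. Notch genes were lower in fold, from 1.39 for *Rbpj* to 83.3 for *Mfng*, a modifier of Notch receptors.

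Genes of different vessel segments occurred together. At least 2 UMIs of the capillary list were found in 172 nuclei, of the venous list in 109 and of the arterial list in 86, and 53 nuclei had at least 2 of both arterial and venous genes. The shares in WT and HET were 85.1% and 72.9% for capillary, 53.4% and 47.9% for venous and 41.0% and 41.7% for arterial genes. Nuclei were not divided into segments. Segment genes differed between the low-pericyte nuclei and the other 85. *Vwf* and *Il1r1*, venous genes, were in 18.5% and 14.6% of the low-pericyte nuclei and in 3.07% and 2.77% of the others, whereas *Cxcl12* was in 33.4% and 71.7%. These pairs were named after their values were seen.

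Endothelial nuclei made up 1.74% (1.48 to 2.03) of WT nuclei and 0.532% (0.393 to 0.705) of HET nuclei. The WT share was 3.27 times the HET share (2.35 to 4.61), a log2 ratio of -1.71. In the low-pericyte set it was 2.21 times (1.49 to 3.32), with 86 WT and 38 HET nuclei. In the whole endo cluster, with 222 WT and 122 HET nuclei, it was 1.77 times (1.42 to 2.23). The 135 endo-cluster nuclei with another label went the other way, with 61 WT and 74 HET nuclei. Of these, 20 WT and 33 HET nuclei had at least 10 endothelial marker UMIs, and 33 WT and 54 HET nuclei carried the label Neurons. The direction of the endothelial share was the same in each set, and its size moved by more than 1.5 times with the label rule. With 1 animal per genotype, fewer endothelial cells, a lower recovery of their nuclei and an uneven loss to other labels cannot be told apart.

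HET and WT were then compared gene by gene in the summed endothelial UMIs. Of 6393 genes with at least 20 UMIs in both libraries together, 434 (6.79%) were at least 2-fold higher in HET and 830 (13%) at least 2-fold lower, and the median log2 ratio was -0.08. These counts include counting error, which is large at 20 UMIs. Among the 1181 genes with at least 100 UMIs, 47 (3.98%) were at least 2-fold higher and 113 (9.57%) at least 2-fold lower. In the low-pericyte nuclei 3345 genes were compared, 167 (4.99%) of them at least 2-fold higher and 297 (8.88%) at least 2-fold lower.

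Long genes were higher in HET and short genes lower. Over 6348 genes with 1 position in the annotation (GENCODE vM21, GRCm38), the median log2 ratio was -0.62 for the shortest quartile (up to 13.8 kb), -0.25 and 0.08 for the next quartiles, and 0.39 for the longest quartile (over 87.3 kb). The share of genes lower in HET was 80.9% in the shortest quartile and 25.5% in the longest. In low-pericyte nuclei the 4 medians were -0.41, -0.19, 0.02 and 0.16. Ribosomal protein and oxidative phosphorylation genes, nearly all short, were lower in HET for 78 of 81 (median -0.67) and 73 of 75 genes (median -0.77). Of 9 heat shock chaperones 8 were lower (median -0.84), and of 10 immediate early genes, which follow recent activity, 4 were lower (median 0.08). The ribosomal protein and oxidative phosphorylation lists had medians of -0.86 and -0.73 in astrocytes and -0.81 and -0.71 in oligodendrocytes. Of the immediate early genes 7 of 7 were lower in astrocytes (median -0.74) and 10 of 13 in oligodendrocytes (median -0.63). Gene length and ribosomal share thus moved with genotype, and their part in the ratios of single genes was not tested.

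**Figure D3:**
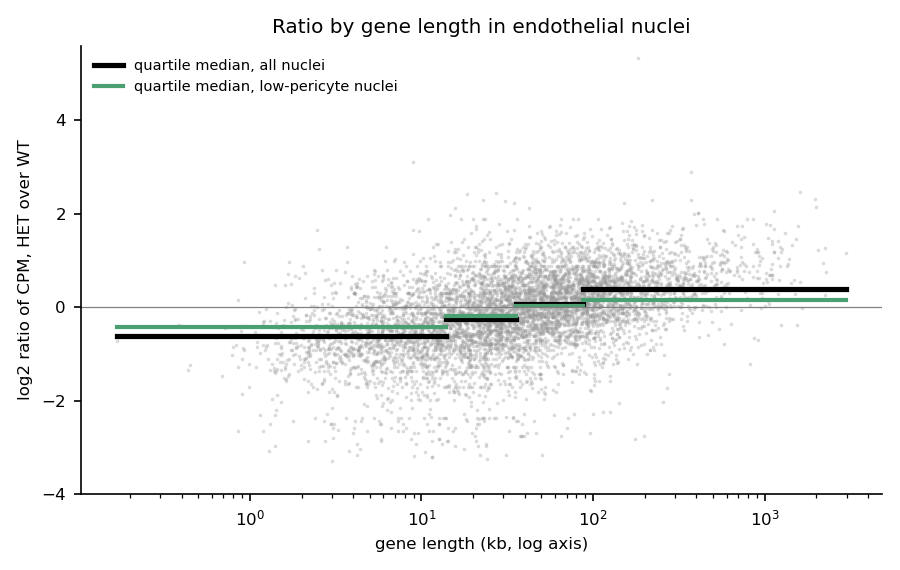
Log2 ratio of CPM, HET over WT (y axis), against gene length in kb (x axis, log scale) for each gene with at least 20 UMIs; bars are medians of 4 equal groups by length in all endothelial nuclei (black) and low-pericyte nuclei (green). The black medians go from -0.62 in the shortest group to 0.39 in the longest.

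Barrier genes differed little between genotypes. Of 40 compared genes, 25 were higher and 15 lower in HET, where 46% of all genes were higher and 54% lower. Of the 40, 0 were at least 2-fold higher and 1 at least 2-fold lower, and the median was 0.14 against -0.08 for all genes. Barrier genes were longer than the rest, with a median length of 64.3 kb against 35.4 kb for all genes. The longest quartile, whose median was 0.39, held 8 of 18 junction, 7 of 12 basement membrane and 0 of 10 transcytosis genes. *Cldn5*, a short gene of 1.42 kb, had 1413 UMIs in WT and 303 in HET, or 2776 and 2196 CPM, a log2 ratio of -0.34 (-0.52 to -0.16). In low-pericyte nuclei its ratio was -0.02 (-0.29 to 0.24). *Pecam1* had 265 and 98 UMIs and a ratio of 0.45 (0.10 to 0.79), or 0.23 (-0.23 to 0.67) in low-pericyte nuclei.
*Cdh5* had 156 and 44 UMIs and a ratio of 0.06 (-0.46 to 0.55), so a difference of 2-fold lies outside its interval. *Esam* had 212 and 46 UMIs, with an interval of -0.81 to 0.14. Junction genes as a list had a median of 0.14, with 13 of 18 higher, and the range went from -0.68 for *Ctnnb1* (β-catenin) to 0.91 for *Pard3*, a polarity gene.

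In the transcytosis list *Cavin2*, a caveolar coat protein, was the 1 gene past 2-fold. It had 161 WT and 20 HET UMIs, or 316 and 145 CPM, and a ratio of -1.13 (-1.87 to -0.45). In low-pericyte nuclei the ratio was -0.71 (-1.65 to 0.14). Its partner *Cav1* went the other way with 102 and 41 UMIs and 0.57 (0.01 to 1.10), and *Cavin1* had an interval of -1.27 to 0.46. In low-pericyte nuclei *Cav1* was at 0.21 (-0.50 to 0.89). *Mfsd2a* had 81 and 21 UMIs and a ratio of -0.06 (-0.83 to 0.64). Of the basement membrane list, *Sparc*, a matrix protein that pericytes also make, was at -0.53 (-0.79 to -0.26) in all nuclei and at 0.14 (-0.28 to 0.54) in low-pericyte nuclei, while *Itga1* was at -0.01 (-0.42 to 0.38). No gene of the list passed 2-fold among 12.

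Of 38 transporter genes compared, 15 were higher and 23 lower in HET, 0 were at least 2-fold higher and 2 at least 2-fold lower, and the median was -0.14. For all genes the shares were 46% higher, 54% lower, 6.79% at least 2-fold higher and 13% at least 2-fold lower. *Slco1a4* had 1340 UMIs in WT and 501 in HET, or 2632 and 3632 CPM, a ratio of 0.46 (0.31 to 0.61), and 0.29 (0.10 to 0.48) in low-pericyte nuclei. *Slco1c1* was at 0.17 (-0.07 to 0.41). *Slc2a1* had 583 and 125 UMIs and a ratio of -0.34, and 0.10 in low-pericyte nuclei.
The 2 genes past 2-fold were the lactate and ketone carrier *Slc16a1* and the glutamine carrier *Slc38a5*. *Slc16a1* had 134 and 14 UMIs and a ratio of -1.38 (-2.28 to -0.58). *Slc38a5*, a venous gene of 9.05 kb, had 103 and 9 UMIs and a ratio of -1.63 (-2.80 to -0.65). In low-pericyte nuclei both stayed under WT at -0.56 (-1.83 to 0.57) and -0.98 (-2.56 to 0.34), with under 30 WT UMIs each.

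The efflux pumps lay from near 0 to moderately higher in HET, and their summed ratio was 0.24 (0.07 to 0.40). *Abcb1a*, the best-counted pump, had 514 and 137 UMIs, or 1010 and 993 CPM, and a ratio of -0.02 (-0.31 to 0.25). *Abcg2* had 437 and 152 UMIs and a ratio of 0.36 (0.08 to 0.63), and 0.14 (-0.24 to 0.52) in low-pericyte nuclei. *Abcc4*, a pump of organic anions, had 143 and 56 UMIs and the highest ratio of the list, 0.53 (0.06 to 0.99), and 0.31 (-0.22 to 0.83) in low-pericyte nuclei. The ABC list had a median of 0.17, with 3 of 6 genes higher. Of these 6 genes, 5 lay in the longest quartile, whose median was 0.39, so the list did not stand above genes of its length. Transport receptors were led by *Tfrc*, at 185 and 94 UMIs, or 363 and 681 CPM, a ratio of 0.91 (0.53 to 1.27). Without the pericyte-rich nuclei it was 0.88 (0.38 to 1.37). *Fcgrt*, by contrast, was at -0.88 (-1.51 to -0.30), and at -0.18 (-1.06 to 0.65) in low-pericyte nuclei.

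**Figure D4:**
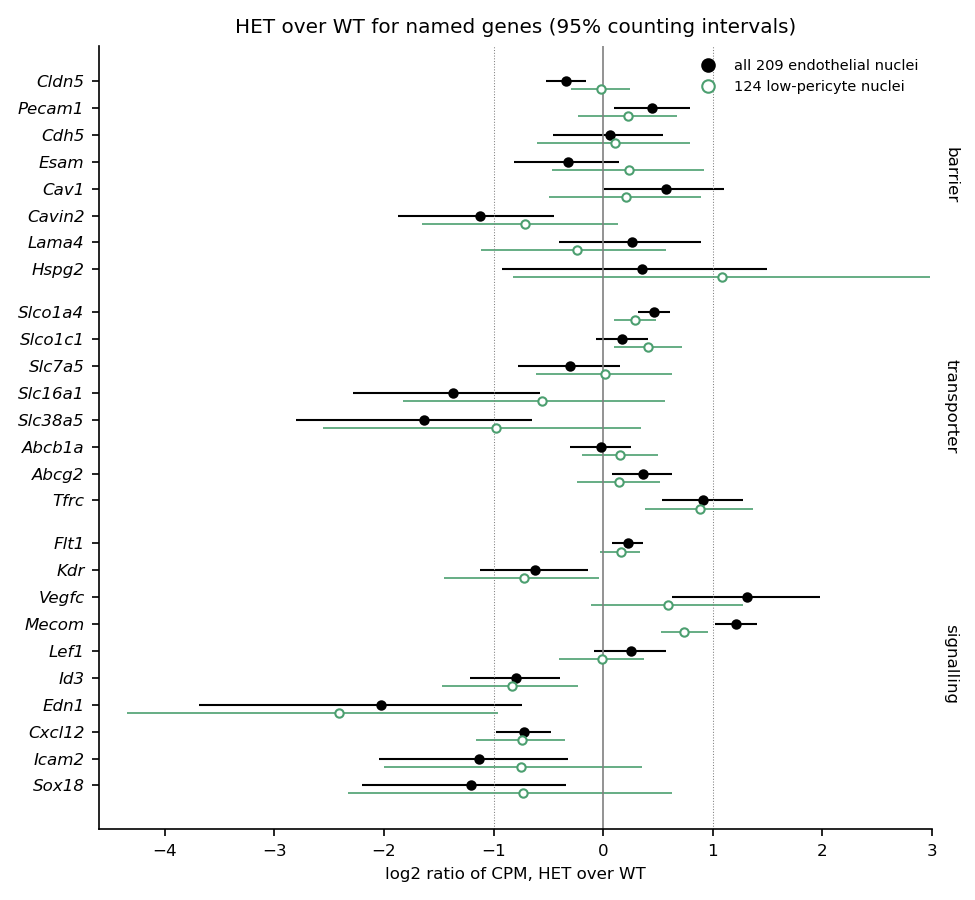
Log2 ratio of CPM, HET over WT (x axis), for 26 barrier, transporter and signalling genes (y axis) in all 209 endothelial nuclei (black) and 124 low-pericyte nuclei (green, open), with exact 95% intervals of the UMI counts, 1 library per genotype; dotted lines mark 2-fold. *Mecom* at 1.21 and *Tfrc* at 0.91 lie to the right in both sets, *Cldn5* at -0.34 moves to -0.02 without the pericyte-rich nuclei, and the lower end of the low-pericyte interval of *Edn1* lies at -4.35.

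Among 105 signalling genes compared, 49 were higher and 56 lower in HET, 6 at least 2-fold higher and 11 at least 2-fold lower, with a median of -0.01. Among all genes 46% were higher and 54% lower, and 6.79% and 13% passed 2-fold, so these counts lay near the background. *Mecom*, a transcription factor gene of arterial endothelium and 597 kb long, had 591 UMIs in WT and 371 in HET, or 1161 and 2689 CPM, a ratio of 1.21 (1.02 to 1.40). In low-pericyte nuclei it had 405 and 320 UMIs and a ratio of 0.74 (0.52 to 0.95), under 2-fold. Its length lies in the quartile of genes that was higher in HET as a group, with a median of 0.39.
*Flt1* had 1711 and 541 UMIs and a ratio of 0.22 (0.08 to 0.36), or 0.16 (-0.03 to 0.34) in low-pericyte nuclei. *Kdr*, the signalling VEGF receptor, had 238 and 42 UMIs and a ratio of -0.62 (-1.13 to -0.14), with -0.72 (-1.46 to -0.03) in low-pericyte nuclei. *Vegfc*, a ligand, had 49 and 33 UMIs and a ratio of 1.31 (0.63 to 1.98), or 0.59 (-0.11 to 1.27) in low-pericyte nuclei. Its receptor *Flt4* was at 1.10 (-0.12 to 2.24) with 30 UMIs in all.

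Wnt genes did not go one way. Of 22, 12 were higher and 10 lower, where 46% of all genes were higher, with a median of 0.06. *Lef1* had 329 and 106 UMIs and a ratio of 0.25 (-0.08 to 0.57). *Znrf3*, which removes Wnt receptors, was at 1.44 (0.74 to 2.12), and the receptor *Fzd3*, at 22 and 1 UMIs, at -2.58 (-7.94 to 0.05). In low-pericyte nuclei *Znrf3* was at 0.87 (0.06 to 1.68). *Fzd3* was at the level of other nuclei (0.968-fold).

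Of the TGF-β and BMP list, 6 genes were higher and 9 lower, where 54% of all genes were lower, with a median of -0.44. The target genes *Id1* (1.16 kb) and *Id3* (2.26 kb) had ratios of -0.61 (-0.95 to -0.28) and -0.79 (-1.21 to -0.39). In low-pericyte nuclei *Id3* was at -0.83 (-1.47 to -0.23) and *Id1* at -0.08 (-0.60 to 0.41). The transducers *Smad1* and *Smad5* were at 1.62 (0.69 to 2.54) and -1.12 (-3.08 to 0.38).
Of the 17 vasoactive genes compared, 9 were higher and 8 lower, with a median of 0.07 and a summed ratio of 0.07 (-0.04 to 0.17). The 4 genes past 2-fold were all lower, where 13% of all genes were at least 2-fold lower. *Edn1*, the vasoconstrictor endothelin, had 75 and 5 UMIs and a ratio of -2.02 (-3.69 to -0.74), and -2.41 (-4.35 to -0.96) in low-pericyte nuclei, where 45 and 4 UMIs remained. The G protein gene *Gna11* was at -1.29 (-2.39 to -0.34), its relative *Gna13* had 23 and 2 UMIs, and the arterial connexin *Gja4* had 34 and 3. In low-pericyte nuclei *Gja4* had 0 WT and 2 HET UMIs, so all of its WT UMIs lay in the pericyte-rich nuclei. *Klf2* had 316 and 90 UMIs and a ratio of 0.07 (-0.28 to 0.41), and 0.87 (0.34 to 1.40) in low-pericyte nuclei. Notch genes were few, with 3 of 7 higher and a median of -0.06.

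The leukocyte adhesion and inflammation list had the lowest median of the signalling lists. Of 16 genes, 2 were higher and 14 lower, 1 at least 2-fold higher and 3 at least 2-fold lower, with a median of -0.71. For all genes the shares were 46% higher, 54% lower, 6.79% at least 2-fold higher and 13% at least 2-fold lower, so the 2-fold counts lay near the background. In low-pericyte nuclei 11 of 13 were lower, against 52.4% of all genes there (47.6% higher), and the median was -0.74. The list holds 7 of 16 genes in the shortest quartile, whose median was -0.62. *Cxcl12* (12.8 kb) had 939 UMIs in WT and 154 in HET, or 1845 and 1116 CPM, a ratio of -0.72 (-0.98 to -0.48), and -0.74 (-1.16 to -0.35) in low-pericyte nuclei. *Icam2* was at -1.13 (-2.05 to -0.32) and at -0.75 in low-pericyte nuclei, where 32 WT and 9 HET UMIs remained and the interval reached 0.35. The receptors *Tnfrsf1a* and *Osmr* went apart: *Tnfrsf1a* had 28 and 1 UMIs with -2.92 (-8.28 to -0.33), *Osmr*, the oncostatin M receptor, had 28 and 20 with 1.40 (0.49 to 2.28). In low-pericyte nuclei *Tnfrsf1a* was at -1.51 (-7.03 to 1.54) and *Osmr* at 1.08 (-0.05 to 2.21).
The antigen presentation genes *H2-D1*, *H2-K1* and *B2m*, named after their values were seen, were at -0.82, -0.85 and -0.69, and at -0.52, -0.74 and -1.14 in low-pericyte nuclei.

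Among 17 transcription factors 10 were higher and 7 lower, where 46% of all genes were higher, with a median of 0.19. Beside *Mecom*, *Sox18* (1.80 kb) was at -1.20 (-2.20 to -0.34) and *Ets2* at -1.22 (-2.91 to 0.11), while *Sox17* was at -0.41 (-1.13 to 0.24) and *Erg* at 0.20 (-0.32 to 0.70). *Sox18* was at -0.73 (-2.33 to 0.63) in low-pericyte nuclei.

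Of 9 arterial genes, 3 were at least 2-fold higher and 2 at least 2-fold lower, with a median of 0.88, where 6.79% and 13% of all genes passed 2-fold in these directions. The summed level of the arterial list had a smaller ratio, 0.23 (-0.03 to 0.48). *Bmx*, an arterial kinase, had 25 UMIs in each library, or 49.1 and 181 CPM, a ratio of 1.88 (1.02 to 2.74), and 1.58 (0.62 to 2.56) in low-pericyte nuclei. Its UMIs lay in 9.09% of the 209 nuclei without thinning, and the intervals take no account of their spread over nuclei. *Fbln5* was at 1.04 (-0.24 to 2.23), and *Sema3g* had 18 and 2 UMIs. *Mgp*, the best-counted arterial gene, was at -0.35 (-0.77 to 0.06). In low-pericyte nuclei 6 of 6 compared arterial genes were higher, where 47.6% of all genes were, with a median of 0.64. The 2 genes at least 2-fold lower in all nuclei, *Gja4* and *Sema3g*, fell under 20 UMIs there and were not compared. *Sema3g* had 9 and 2 UMIs in these nuclei and a ratio of -1.09 (-4.34 to 1.18). Of the 6, *Mgp* (-0.33 to 0.85), *Fbln5* (-0.90 to 1.63), *Jag1* (-0.37 to 2.26) and *Vegfc* (-0.11 to 1.27) had intervals that included 0. Capillary genes had a median of -0.18 and venous genes of -0.14, and in low-pericyte nuclei -0.05 and -0.77. *Vwf*, a clotting factor of veins, was at -0.23 (-1.03 to 0.51) in all nuclei and at -0.86 (-1.67 to -0.12) in low-pericyte nuclei.

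**Figure D5:**
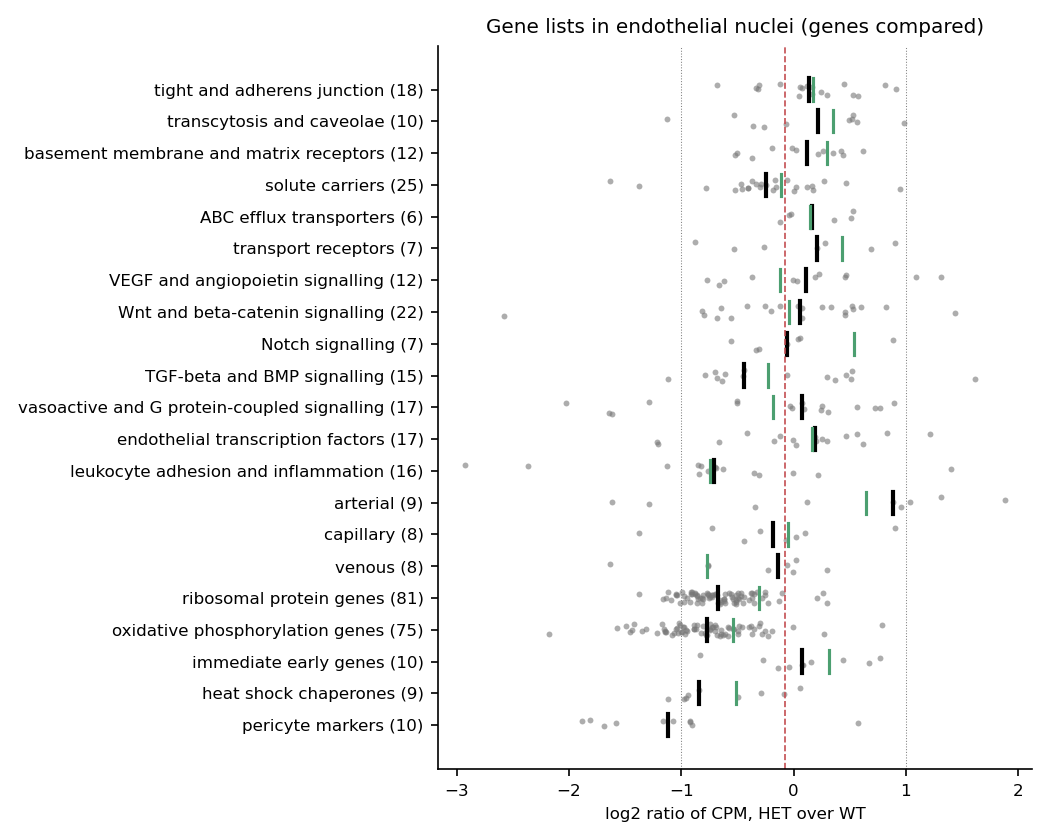
Log2 ratio of CPM, HET over WT (x axis), for each compared gene (grey points) of 21 lists (y axis, number of genes in brackets) in endothelial nuclei; black bars are list medians, green bars medians in low-pericyte nuclei where over 2 genes were compared, and the dashed red line is the median of all genes at -0.08. Pericyte markers lie lowest by median at -1.12, then heat shock chaperones at -0.84, oxidative phosphorylation genes at -0.77, inflammation genes at -0.71 and ribosomal protein genes at -0.67.

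Over all genes with at least 40 UMIs, the 8 largest ratios included genes with a far lower level in endothelial nuclei than in other nuclei. *Dlg2*, *Macrod2*, *Sgcz* and *Lrrtm4*, long genes of neurons, were at 2.32, 2.15, 2.06 and 1.88 and stood at 0.0419-, 0.0785-, 0.0371- and 0.0341-fold of their level in other nuclei. *Ptprj*, a receptor phosphatase, had 53 and 67 UMIs, or 104 and 486 CPM, a ratio of 2.22 (1.68 to 2.77), and 1.72 (1.13 to 2.32) in low-pericyte nuclei. Summed over 11 neuron markers, WT nuclei held 2126 CPM and HET nuclei 3269 CPM. The part of neuronal RNA in these ratios was not tested. Also among the largest were *A430090L17Rik*, *Gm3848* and *Insyn2a*, at 2.44, 2.13 and 2.12.
The 8 smallest ratios were those of *Adam15*, *Ttr*, *Rab5if*, *Aimp1*, *Ucp2*, *Mrpl57*, *Ier5* and *Ccdc124*, from -3.20 to -2.51, with 2 to 11 HET UMIs each. *Ttr*, the choroid plexus carrier of thyroid hormone, had 371 and 11 UMIs. It was found in 46.3% of endothelial nuclei, 27.1% of astrocytes and 35.1% of microglia, and its level was 2.67-fold that in other nuclei. The source of its UMIs was not tested. *Ucp2*, a mitochondrial carrier 74.3-fold higher in endothelial nuclei, had 78 and 3 UMIs and a ratio of -2.82 (-5.13 to -1.22). In low-pericyte nuclei it had 17 and 2 UMIs and a ratio of -2.01 (-5.17 to 0.07).

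*Scn1a* itself had 31 WT and 8 HET UMIs in endothelial nuclei, or 60.9 and 58.0 CPM, at 0.150-fold of the level in other nuclei. The knock-in changes 1 codon, which gene counts do not show, so these values do not check the genotype labels.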

How the data were processed

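Brainstem nuclei of 1 WT and 1 HET mouse were profiled with 10x Genomics 3′ v3.1 chemistry. The authors aligned reads to mm10 and counted UMIs with Cell Ranger, and in Seurat 4.1 removed nuclei with under 1000 genes or over 15% mitochondrial reads; their methods also list genes left out. The deposited table holds raw UMI counts of 25556 genes in 18281 nuclei. Cluster names, reference labels, percent values and a doublet score (caller not given in the sources used here) came from the deposited metadata, in which all nuclei are singlets. No doublet step was added.

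Members and gene lists were chosen with earlier results of these data known. UMIs were summed per library and divided by the summed UMIs of its nuclei (CPM). Log2 ratios were formed for genes with at least 20 UMIs, with exact intervals (Poisson for levels, conditional binomial for ratios, Clopper-Pearson for shares); a library at 0 was set to 3 counts. Named genes were the 3 rule markers, list members past 2-fold or among the 4 highest over other nuclei per list, and the 8 largest and smallest ratios at 40 UMIs or more; a few others are named as context or as marked. With 1 library per genotype there was no test. Statistics were tested on simulated data. Python 3.11.15, numpy 2.4.6, pandas 2.3.3 and scipy 1.17.1 were used.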

Additional observations from a re-analysis of the deposited data

How the results depend on the processing

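No paired analysis was possible because there was 1 library per genotype. The log2 ratio of the endothelial share was -0.83 over all nuclei of the endo cluster and -1.14 in low-pericyte nuclei. The count of genes at least 2-fold higher in HET was 784 over the endo cluster, 141 at 50 UMIs or more, 2102 for genes with 1 UMI in each library and 167 in low-pericyte nuclei, and the count at least 2-fold lower was 282, 1486 and 297 under the last 3 of these; the gene filters change how many genes are counted. The barrier median was 0.22 with the median of all genes set to 0, 0.22 in nuclei with at least 2000 UMIs, -0.087 over the endo cluster and 0.23 in low-pericyte nuclei. The transporter median was -0.060 with the median of all genes set to 0, 0.012 without the 10% highest doublet scores, -0.28 over the endo cluster, -0.041 at 50 UMIs, -0.050 with 1 UMI in each library and -0.010 in low-pericyte nuclei. The signalling median was 0.064 with the median of all genes set to 0, -0.087 as a mean over nuclei, -0.15 at 2000 UMIs per nucleus, -0.40 over the endo cluster, -0.15 as a mean over genes, -0.13 in low-pericyte nuclei and -0.083 without nuclei with more pericyte than endothelial UMIs. These 3 medians lie so near 0 that their sign depends on the setting; the cause was not tested.

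Over the endo cluster the ratios of *Flt1*, *Pecam1*, *Cav1*, *Abcg2* and *Igf1r* changed sign to -0.24, -0.062, -0.16, -0.063 and -0.068. In low-pericyte nuclei *Igf1r* changed to -0.11 and *Sparc* to 0.14. Over these alternatives 688 of 736 values of named genes stayed within the interval given by the main analysis. Setting the median of all genes to 0, or leaving ribosomal protein genes out of the total, shifts all ratios by the same amount and moved 0 of 92 named genes. Over the endo cluster 20 of the 92 moved and 5 changed sign, and in low-pericyte nuclei 15 and 2. Of the list medians 67 of 242 moved, among them 13 in low-pericyte nuclei, where 9 stayed. Shares of nuclei for *Flt1*, *Cldn5* and *Pecam1* were 91.8%, 70.0% and 41.0% at 1000 UMIs, 97.6%, 86.1% and 69.9% unthinned and 99.6%, 87.7% and 66.8% at 2000 UMIs. The sets with and without pericyte-rich nuclei were chosen after seeing the data. Depth limits single genes: with 137956 HET UMIs, a gene at 20 UMIs has an interval several log2 units wide, and leaving out a library leaves no comparison.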
